A study of Arabidopsis thaliana with 18 samples.

Results

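The comparison described here set seedlings labelled ire1a1b (the double mutant of IRE1A and IRE1B) against seedlings labelled ire1b, both given tunicamycin. It took the libraries carrying these 2 labels together with the treatment, which were 3 of ire1a1b and 3 of ire1b, or 6 of the 18 libraries of the series. PolyA RNA came from whole Arabidopsis thaliana seedlings grown for 7 days on plates and then kept for 6 h in liquid medium, with either tunicamycin (TM) at 5 µg/mL or its solvent DMSO. The series also held wild-type seedlings under both treatments, and DMSO libraries of both mutants. The DMSO libraries are used below for gene levels, for the same genotype difference without TM and for how it changed with TM. Wild-type levels are given beside some genes. The labels gave neither the alleles nor the background strain. Both sides carried the ire1b label and the drug, and their labels differed by the added ire1a mutation. Whether the lines differ elsewhere is not given, so the mutation and any other difference between the lines cannot be told apart. Whole seedlings were extracted, so fewer cells of a type and less RNA per cell cannot be told apart.

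IRE1 proteins sit in the membrane of the endoplasmic reticulum (ER) and carry a stress sensor inside the ER and a kinase and ribonuclease outside it. When unfolded proteins build up, plant IRE1 cuts the mRNA of the transcription factor bZIP60, which is rejoined into a form that lacks its membrane anchor and enters the nucleus. A parallel arm uses bZIP28, a factor that is cut free by proteases of the Golgi, and both arms switch on genes for folding, degradation and transport of secreted proteins. TM causes such stress by blocking the first step of N-glycosylation.

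The 6 libraries held 17952902 to 24848852 gene counts, and 19950 of 27416 listed genes passed the filter on low counts and were tested. The first principal component (46.2% of the variance) separated the genotypes, with scores of -18.3 to -23.8 for ire1b and 10.9 to 40.1 for ire1a1b. Replicate 1 of ire1a1b stood apart, at 23 on the second component (24.7%) against -21.6 and -22.5 for the other ire1a1b replicates. Its chi-square per degree of freedom against these was 26.7 and 29.1, while the other replicate pairs lay between 2.72 and 8.44. Hypoxia and mitochondrial stress genes were among those low in this library: SAD6 stood at 88.5 CPM (counts scaled to library size) there against 404 and 326 in replicates 2 and 3, and AOX1A (alternative oxidase) at 346 against 696 and 619.7. Counts of calls are therefore given with and without it.

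The labels were checked first on the targeted genes. IRE1A (AT2G17520, TAIR10.1 chr2:7617151-7621129, plus strand) stood at 96.6, 93.3 and 99.5 CPM in the ire1b replicates 1 to 3 and at 23.9, 22.6 and 23.4 in those of ire1a1b. All ire1a1b values lay below all ire1b values, by a log2 difference of -2.05 ± 0.06 SE (4.13-fold, adjusted p = 1.6e-06). With DMSO the log2 difference was -2.08. IRE1B (AT5G24360, chr5:8316388-8319981, plus strand) stood at 34.3, 38.2 and 38.3 CPM in ire1b and 46, 38.2 and 36.2 in ire1a1b, and the groups overlapped (log2 0.12 ± 0.1, adjusted p = 0.63). In wild type with TM it ranged from 33.4 to 36.5 CPM. Gene counts thus followed the ire1a part of the label, with transcript still present, and showed no lower IRE1B level in either labelled genotype.

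In all, 487 genes (2.44% of those tested) were called at an adjusted p below 0.05, of which 252 were lower in ire1a1b (1.26%) and 235 higher (1.18%). The median log2 difference was -0.73 for the lower and 0.83 for the higher genes, but the most extreme differences were more often lower. A log2 size of 1 was passed by 92 lower and 84 higher genes, and a size of 2 by 28 lower and 9 higher genes. Without ire1a1b replicate 1, 893 genes were called (4.45%), 347 lower (1.73%) and 546 higher (2.72%). Without ire1b replicate 1, 2 or 3 there were 214, 206 and 245. Same-numbered replicates of the 2 genotypes deviated together, and a fit with the replicate number as a block called 927 genes (4.65%), 349 lower (1.75%) and 578 higher (2.9%). The median log2 difference of all tested genes was 0.00. CPM values of the groups did not overlap for 21.3% of tested genes (10.1% lower and 11.2% higher), so lack of overlap alone marks no gene.

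Promoter letters set the lower genes apart from the rest, and they are shown first because several genes described below carry them. The 250 bases before each annotated gene start were read from the TAIR10.1 genome and searched on both strands. The ER stress response element (ERSE) was taken as CCAAT, then any 10 bases, then CACG. It lay before 33 of 251 lower genes (13.1%), 0 of 235 higher genes and 170 of 19834 tested genes (0.857%). Read the other way, 19.4% of the 170 tested genes with the element were lower. The UPRE core in the form TGACGTGG lay before 8.76% of lower genes, 0.426% of higher genes and 1.54% of all tested genes. Its other form searched, TGACGTGA, did not set the lower genes apart from the higher ones (0.797%, 0.851% and 0.565%). The G-box CACGTG, which can overlap either element, lay before 24.3%, 2.98% and 7.25%. TCATCG, the site ascribed to NAC103, lay before 6.37% of lower and 6.33% of all tested genes. A match is a description of letters and not a measured site of binding.

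The ERSE matches of lower genes named in this report are written in the direction of the element, with CCAAT and CACG in capitals. They let the fixed ends be compared with the free spacer.
BIP3 (chr1:2932006-2932024): CCAATcacaagcagaCACG
BIP3 (chr1:2931928-2931946): CCAATcacttcttgaCACG
ARFA1D (chr1:26565964-26565982): CCAATtaaaacttaaCACG
AT3G60540 (chr3:22375990-22376008): CCAATtttatattgaCACG
AT3G60540 (chr3:22375949-22375967): CCAATaatataacgcCACG
SEC22 (chr1:4010666-4010684): CCAATtaccagccctCACG
PDIL1-2 (chr1:29126584-29126602): CCAATgaaaactctcCACG
HSP90.7 (chr4:12556062-12556080): CCAATacaaaactacCACG
BI1 (chr5:19135773-19135791): CCAATaagaatcatcCACG
HRD3A (chr1:6282166-6282184): CCAATagtaaccggcCACG
p24beta2 (chr3:2455190-2455208): CCAATgatataacgcCACG
HRD1B (chr1:24163685-24163703): CCAATgatataacgaCACG
PDIL1-1 (chr1:7645423-7645441): CCAATgtacaagcgtCACG

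Whole windows are shown for BIP3, ARFA1D and SARA1A. They are the 3 with a G-box among the 12 largest lower differences of calls with a mean log2 CPM of 2 or more. ERSE matches lay before 2 of these 12 and TGACGTGG before 0. A window is also shown for TIN1 (AT5G64510, tunicamycin induced protein). It carries the UPRE core TGACGTGG in 2 copies and was picked for that after its values were seen. The windows run 5′ to 3′ on the strand of the gene and end at the base before its start. Capitals mark the fixed letters of ERSE matches and the G-box in BIP3 and ARFA1D, the G-box in SARA1A and the UPRE core in TIN1.
BIP3 (chr1:2931851-2932100, minus strand): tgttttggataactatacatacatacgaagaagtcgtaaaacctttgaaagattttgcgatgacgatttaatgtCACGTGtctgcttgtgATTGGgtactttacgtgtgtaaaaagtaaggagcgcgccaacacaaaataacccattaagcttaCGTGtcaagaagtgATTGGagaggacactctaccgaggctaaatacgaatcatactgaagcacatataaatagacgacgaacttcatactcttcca
ARFA1D (chr1:26565866-26566115, minus strand): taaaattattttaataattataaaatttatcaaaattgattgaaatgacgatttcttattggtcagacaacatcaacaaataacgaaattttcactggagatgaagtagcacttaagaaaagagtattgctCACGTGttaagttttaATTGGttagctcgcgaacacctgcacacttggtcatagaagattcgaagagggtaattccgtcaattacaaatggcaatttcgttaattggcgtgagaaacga
SARA1A (chr1:2964773-2965022, plus strand): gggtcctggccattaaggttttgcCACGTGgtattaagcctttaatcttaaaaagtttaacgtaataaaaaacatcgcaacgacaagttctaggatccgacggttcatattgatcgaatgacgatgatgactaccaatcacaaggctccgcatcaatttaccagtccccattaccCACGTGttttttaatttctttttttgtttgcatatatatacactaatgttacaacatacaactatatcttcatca
TIN1 (chr5:25784154-25784403, plus strand): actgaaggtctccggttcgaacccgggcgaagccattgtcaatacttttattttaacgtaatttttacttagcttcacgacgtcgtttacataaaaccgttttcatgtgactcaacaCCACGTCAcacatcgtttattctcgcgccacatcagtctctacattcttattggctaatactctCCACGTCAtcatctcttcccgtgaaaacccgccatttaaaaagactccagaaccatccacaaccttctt

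Transcripts of BZIP60 and NAC103 were lower in ire1a1b, and those of BZIP28, BZIP17, S1P and BAG7 were not called. Cutting of the bZIP28 protein was not measured. Of 13 tested regulators of the unfolded protein response 6 were lower and none higher (46.2% lower, IRE1A among them, median log2 -0.08). NAC103 (AT5G64060, chr5:25633455-25635789), a NAC factor known as a target of bZIP60, stood at 130.0, 114 and 132 CPM in ire1b and at 1.82, 2.13 and 1.69 in ire1a1b. Its ire1a1b values were as low as those of DMSO seedlings (1.61 ± 0.208 CPM in ire1b and 1.49 ± 0.259 in ire1a1b, mean ± SD). The log2 difference with TM was -6.06 ± 0.11 (66.8-fold, adjusted p = 1.1e-07). BZIP60 (AT1G42990, chr1:16135723-16137463) stood at 503, 526 and 565 CPM against 199, 245 and 227, with no overlap (log2 -1.25 ± 0.1, adjusted p = 0.00034). Gene counts hold its spliced and unspliced forms together.

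Both membrane-anchored NAC genes of the list were lower, NAC062 by log2 -1.23 ± 0.06 (adjusted p = 2.2e-05) and NAC089 by -1.07 ± 0.09 (adjusted p = 0.00061). BI1, the BAX inhibitor that restrains stress-induced cell death, stood at 942, 953 and 1026 CPM against 517, 642 and 604 (log2 -0.73 ± 0.1, adjusted p = 0.0074, and 0.054 without ire1b replicate 2). BZIP28 stood at 147, 147 and 163 CPM against 144, 149 and 144, and the groups overlapped (log2 -0.07 ± 0.07, adjusted p = 0.71). BZIP17, the protease gene S1P and the survival factor BAG7 had log2 differences of -0.02 ± 0.07, -0.08 ± 0.08 and 0.07 ± 0.06, none of them called.

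**Figure D1:**
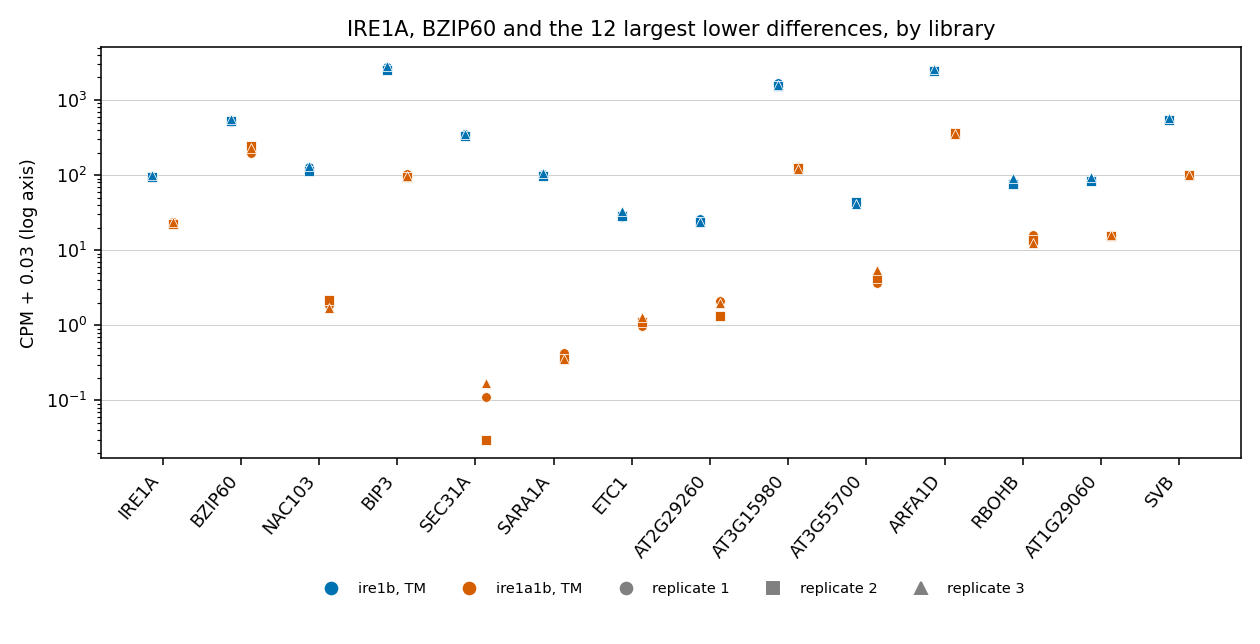
CPM plus 0.03 on a log axis in each of the 6 TM libraries for IRE1A, BZIP60 and the 12 genes with the largest lower differences among calls with a mean log2 CPM of 2 or more. Blue points are ire1b, orange points ire1a1b and the marker gives the replicate. For each gene the 3 ire1a1b points lie below the 3 ire1b points.

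ER chaperone and oxidoreductase genes were lower, and one BiP gene fell far more than the others. Of 25 tested ER folding genes 13 were lower and none higher (52% lower against 1.26% of all tested genes, median log2 -0.38). BIP3 (AT1G09080, chr1:2929217-2931850), the strongly stress-induced BiP of the ER Hsp70 class, stood at 2755, 2539 and 2838 CPM in ire1b and 105, 93 and 98.7 in ire1a1b. This was a 27.4-fold difference with no overlap (log2 -4.78 ± 0.1, adjusted p = 2.4e-07). BIP2 (AT5G42020) stood at 6143, 6214 and 6399.9 CPM against 3954, 4222 and 4105 (log2 -0.61 ± 0.08, adjusted p = 0.0084), and BIP1 (AT5G28540) differed by -0.53 ± 0.08 (adjusted p = 0.013). These 2 calls were lost without 1 ire1b library, at adjusted p = 0.077 without replicate 2 for BIP2 and 0.11 without replicate 1 for BIP1. BIP1 and BIP2 are near-identical copies, so the split of reads between them is uncertain.

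Among the partners of BiP, the J-domain gene ERDJ3A was 2.59-fold lower (log2 -1.37 ± 0.07, adjusted p = 3.4e-05). ERDJ3B (log2 -0.23 ± 0.08, adjusted p = 0.23) and P58IPK (-0.06 ± 0.07, adjusted p = 0.77) were not called. HSP90.7, the ER member of the HSP90 family, stood at 5329.8, 5291 and 5168 CPM against 2935, 2848 and 2703 (log2 -0.9 ± 0.08, adjusted p = 0.001). The thiol oxidase ERO1, which recharges disulfide isomerases, was lower by -1.55 ± 0.06 (adjusted p = 1.1e-05), while its relative ERO2 stood at -0.07 ± 0.07 (adjusted p = 0.7).

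Protein disulfide isomerases divided along the same lines. PDIL2-3 stood at 757, 764 and 795 CPM in ire1b against 278, 288 and 287 in ire1a1b, 2.72-fold lower without overlap (log2 -1.44 ± 0.07, adjusted p = 2.3e-05). PDIL1-2 followed at -0.94 ± 0.07 (adjusted p = 0.00027). PDIL1-1, PDIL2-2 and PDIL2-1 were lower by 0.38 to 0.49 on the log2 scale, and each lost its call without an ire1b library (adjusted p = 0.13 without replicate 2, 0.13 without replicate 1 and 0.19 without replicate 2). PDIL1-3, PDIL1-4, PDIL1-5 and PDIL1-6 were not called, with log2 differences of -0.07, 0.09, 0.18 and -0.04. Of the lectin chaperones, the calreticulin CRT1B was lower by -0.63 ± 0.09 (adjusted p = 0.0087, and 0.072 without ire1b replicate 1), and AT5G07340, annotated as a calreticulin family protein, by -0.87 ± 0.07 (adjusted p = 0.00038). CRT1A stood at 1442, 1485 and 1487 CPM against 1717, 1707 and 1645 without a call (log2 0.2 ± 0.07, adjusted p = 0.26), and CNX1 missed the threshold (log2 -0.37 ± 0.08, adjusted p = 0.071). Without ire1a1b replicate 1, 16 of the 25 were lower, and without any 1 of the ire1b libraries 7 were.

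ER-associated degradation, which moves misfolded proteins out of the ER to the proteasome, was the list with the largest share of lower genes. Of 12 tested members 9 were lower and none higher (75%, median log2 -0.5). DER1 (AT4G29330, derlin, a part of the exit channel) stood at 172, 169 and 181 CPM in ire1b and 81.7, 82.9 and 83 in ire1a1b, 2.11-fold lower with no overlap (log2 -1.07 ± 0.06, adjusted p = 5.3e-05). The ubiquitin-conjugating enzyme UBC32 was lower by -1.17 ± 0.07 (adjusted p = 7.1e-05), the lectin OS9, which recognises glycans of misfolded proteins, by -0.99 ± 0.07 (adjusted p = 0.00025), and HRD3A, the partner of the HRD1 ligase, by -0.67 ± 0.07 (adjusted p = 0.002). HRD1B, a copy of that ligase, stood at 622, 564 and 657 CPM against 483, 401 and 430.2 (log2 -0.49 ± 0.1, adjusted p = 0.043, and 0.21 without ire1b replicate 1). The 3 genes without a call were HRD1A (log2 0.05 ± 0.08), the ATPase gene CDC48A (0.09 ± 0.08) and the mannosidase gene MNS5 (-0.03 ± 0.1). Without ire1b replicate 2, 5 of the 9 calls were left.

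The entry gate into the ER was lower in single copies of its subunits. Of 15 tested genes of the Sec61 translocon and the signal peptidase 6 were lower and none higher (40%, median log2 -0.19). The Sec61 alpha gene AT1G29310 stood at 464, 487 and 471 CPM in ire1b against 205, 213 and 197 in ire1a1b (log2 -1.21 ± 0.07, adjusted p = 5.9e-05), whereas its copy AT2G34250 had a log2 difference of -0.16 ± 0.07 (adjusted p = 0.37). Likewise the Sec61 beta gene AT3G60540 was lower by -1.2 ± 0.08 (adjusted p = 0.00012), the gamma gene AT4G24920 by -0.75 ± 0.06 (adjusted p = 0.00049) and ERDJ2B, the Sec63-type partner, by -0.98 ± 0.06 (adjusted p = 8.5e-05). ERDJ2A stood at -0.01 ± 0.07 (adjusted p = 0.95). N-glycosylation genes were nearly all without a call: 2 of 14 were lower and none higher (14.3%, median log2 -0.03). These were HAP6, a ribophorin-type subunit of the oligosaccharyltransferase (log2 -0.58 ± 0.08, adjusted p = 0.0087), and GPT, the enzyme that TM inhibits (-0.42 ± 0.07, adjusted p = 0.021). Both calls were lost without ire1b replicate 1 or ire1b replicate 2, and 1 was lost without each of the others except ire1a1b replicate 1, without which 4 genes were called. The catalytic subunit genes STT3A and STT3B had log2 differences of -0.01 ± 0.06 and 0.00 ± 0.07.

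Genes of vesicle coats gave some of the largest differences, and in several families 1 copy differed far more than the others. COPII carries cargo from the ER to the Golgi and COPI returns it. Of 20 tested COPII genes 8 were lower and none higher (40%, median log2 -0.12), and of 13 COPI genes 2 were lower and none higher (15.4%, median -0.07). Without any 1 of the ire1b libraries 5 COPII calls were left. AT1G18830 (chr1:6489233-6494634), listed as SEC31A, an outer-coat subunit of COPII, had 21439 counts over the 3 ire1b libraries and 5 over the 3 ire1a1b libraries. These were 349, 327 and 353 CPM against 0.0792, 0 and 0.141 (adjusted p = 1.1e-07), and at so few counts no fold is given. SEC31B (AT3G63460) stood at 378, 375 and 345 CPM against 376, 374 and 354, and the groups overlapped (log2 0.01 ± 0.07, adjusted p = 0.97).

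SARA1A (AT1G09180, chr1:2965023-2965972) encodes a GTPase of the SAR1 type, the switch that starts COPII assembly, and had 6411 counts in ire1b against 23 in ire1a1b. Its values were 104, 97.7 and 107 CPM against 0.396, 0.327 and 0.328 (log2 -8.16 ± 0.11, adjusted p = 2.3e-08), and DMSO seedlings of the ire1b label had 0.685 ± 0.379. SAR1B was lower by -0.46 ± 0.06 (adjusted p = 0.0092, and 0.084 without ire1b replicate 2). SAR2 (AT4G02080) and AT3G62560, of the same family, had log2 differences of -0.01 ± 0.06 and 0.05 ± 0.06 and were not called. The cargo-binding subunit gene CEF (AT3G44340, a SEC24 type) was lower by -1.27 ± 0.08 (adjusted p = 8.5e-05), and SEC24A (0.02 ± 0.06, adjusted p = 0.91) was not called.

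In COPI, AT3G15980 (chr3:5411278-5418632, coatomer beta' subunit) stood at 1663, 1556 and 1601 CPM in ire1b and 128, 124 and 120.2 in ire1a1b. Every ire1a1b value was close to the DMSO means (119 ± 4.74 CPM in ire1b and 110.3 ± 4.97 in ire1a1b), and the log2 difference with TM was -3.7 ± 0.08 (13-fold, adjusted p = 2.6e-07). Its copies AT1G52360 and AT1G79990 had log2 differences of -0.11 ± 0.06 (adjusted p = 0.45) and -0.06 ± 0.08 (adjusted p = 0.78). The alpha subunit gene AT1G62020 stood at 469.9, 478 and 463 CPM against 136, 133 and 117 (log2 -1.87 ± 0.08, adjusted p = 1.2e-05), with the copy AT2G21390 at 0.02 ± 0.07 (adjusted p = 0.92). None of the remaining COPI subunit genes was called.

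ARF1 GTPases recruit COPI, and the family was put together as a list after the values had been seen. ARFA1D (AT1G70490, chr1:26563718-26565865) stood at 2493, 2423 and 2554 CPM in ire1b against 357, 369 and 353 in ire1a1b, 6.93-fold lower (log2 -2.79 ± 0.08, adjusted p = 1.2e-06). The other 4 tested members were not called, with log2 differences between -0.29 (ARFA1A) and 0.04 (ARFA1E). ARFA1D overlaps AT1G70480 on the opposite strand by 235 bases, and that gene was also lower (log2 -1.03, adjusted p = 0.00045). Counts of overlapping genes cannot be told apart where the strand setting is not given. Among cargo receptors and SNAREs, 3 of 15 were lower and none higher (20%, median -0.14): the SNARE gene SEC22 by -1 ± 0.06 (adjusted p = 6.9e-05), p24beta2 by -0.55 ± 0.07 (adjusted p = 0.0046) and p24delta5 by -0.32 ± 0.06 (adjusted p = 0.046, and 0.22 without ire1b replicate 2). The KDEL receptor gene ERD2, whose product returns escaped ER proteins, stood at -0.03 ± 0.07 (adjusted p = 0.87).

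**Figure D2:**
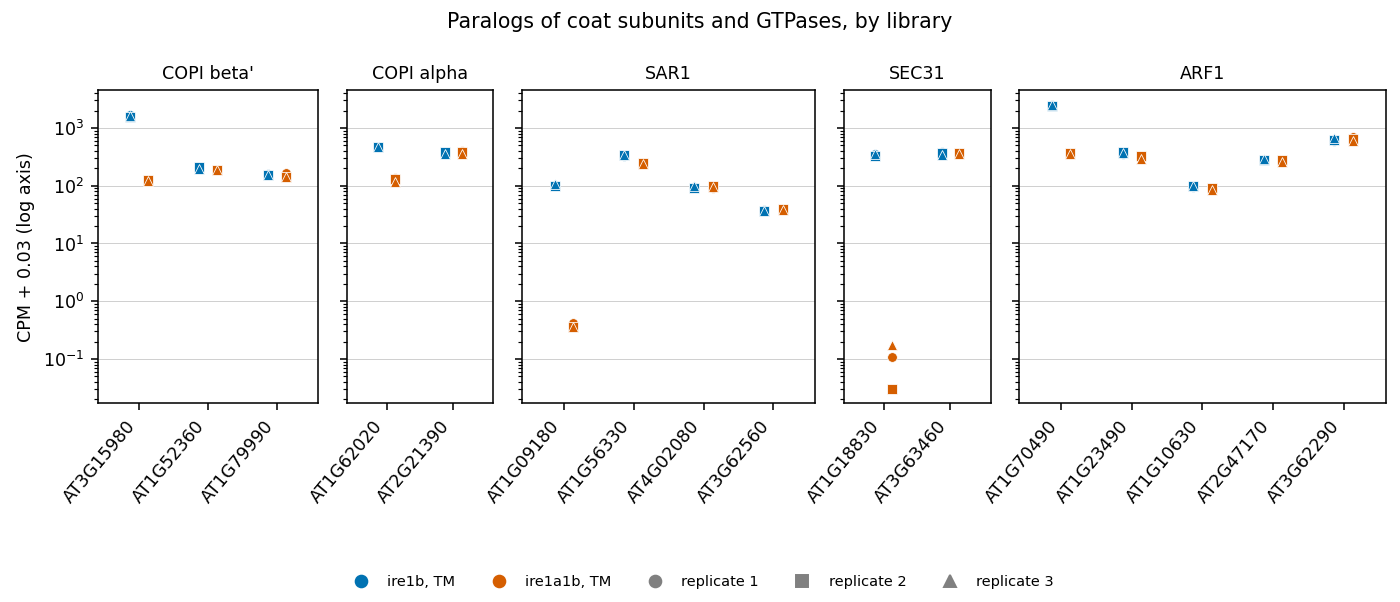
CPM plus 0.03 on a log axis in each TM library for copies of coat subunits and GTPases, with ire1b in blue and ire1a1b in orange. In each family the first gene shown is far lower in ire1a1b (from 1663, 1556 and 1601 to 128, 124 and 120.2 CPM for AT3G15980), and the other copies lie close together in the 2 genotypes, with SAR1B (AT1G56330) somewhat lower.

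The 12 largest lower differences at a mean log2 CPM of 2 or more also held genes outside the secretory lists. ETC1 (AT1G01380, chr1:147043-148014), a small MYB protein that patterns root hairs and trichomes, stood at 27.4, 28.7 and 33.4 CPM in ire1b against 0.95, 1.09 and 1.27 in ire1a1b (log2 -4.76 ± 0.14, adjusted p = 1.6e-06). SVB (AT1G56580, chr1:21198004-21199126), a DUF538 protein named for its trichome phenotype, stood at 545, 543 and 569 CPM against 96.1, 101 and 101 (log2 -2.47 ± 0.07, adjusted p = 1.2e-06). Neither pair of groups overlapped, and in both genes the ire1a1b values lay near the DMSO means (1.13 and 96.6 CPM in ire1a1b). The UDP-glycosyltransferase gene AT3G55700 was 9.61-fold lower (log2 -3.26 ± 0.13, adjusted p = 1.2e-05), and the SNARE-type gene AT1G29060 5.56-fold lower (-2.48 ± 0.07, adjusted p = 1.2e-06). TIN1 stood at 457, 443 and 456 CPM against 81.9, 90.9 and 92.3 (log2 -2.36 ± 0.07, adjusted p = 2.2e-06). SVB overlaps PGN on the opposite strand by 1127 bases, and PGN was not called (log2 0.04, adjusted p = 0.92).

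Neighbours of some of these genes moved with them, while most neighbours of named genes were not called. TBL38, next to AT1G29060, was higher (log2 0.29, adjusted p = 0.035). Both neighbours of the peroxidase gene AT5G06730, itself higher (log2 1.65), were called higher. These were PA2 (log2 0.85, adjusted p = 0.032) and AT5G06740 (log2 1.21, adjusted p = 0.003). AT1G09176 next to SARA1A, AT1G43000 next to BZIP60 and AT3G15970 next to AT3G15980 were called lower (log2 -4.18, -1.51 and -0.36). RBOHB (AT1G09090), an NADPH oxidase gene, starts 888 bases from the start of BIP3 on the opposite strand and stood at 75.6, 76.2 and 92.8 CPM in ire1b against 15.8, 13.6 and 12.4 in ire1a1b (log2 -2.54 ± 0.12, adjusted p = 2.2e-05). AT1G42980 ends 135 bases from the 3′ end of BZIP60 on the opposite strand and was lower by log2 -1.72 (adjusted p = 0.00071). AT2G29260, which encodes an NAD(P)-binding protein (log2 -3.74 ± 0.15, adjusted p = 9.6e-06), overlaps AT2G29263 on the opposite strand by 207 bases, which had 171 counts in ire1b and 4 in ire1a1b, and their counts are uncertain for that reason.

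**Figure D3:**
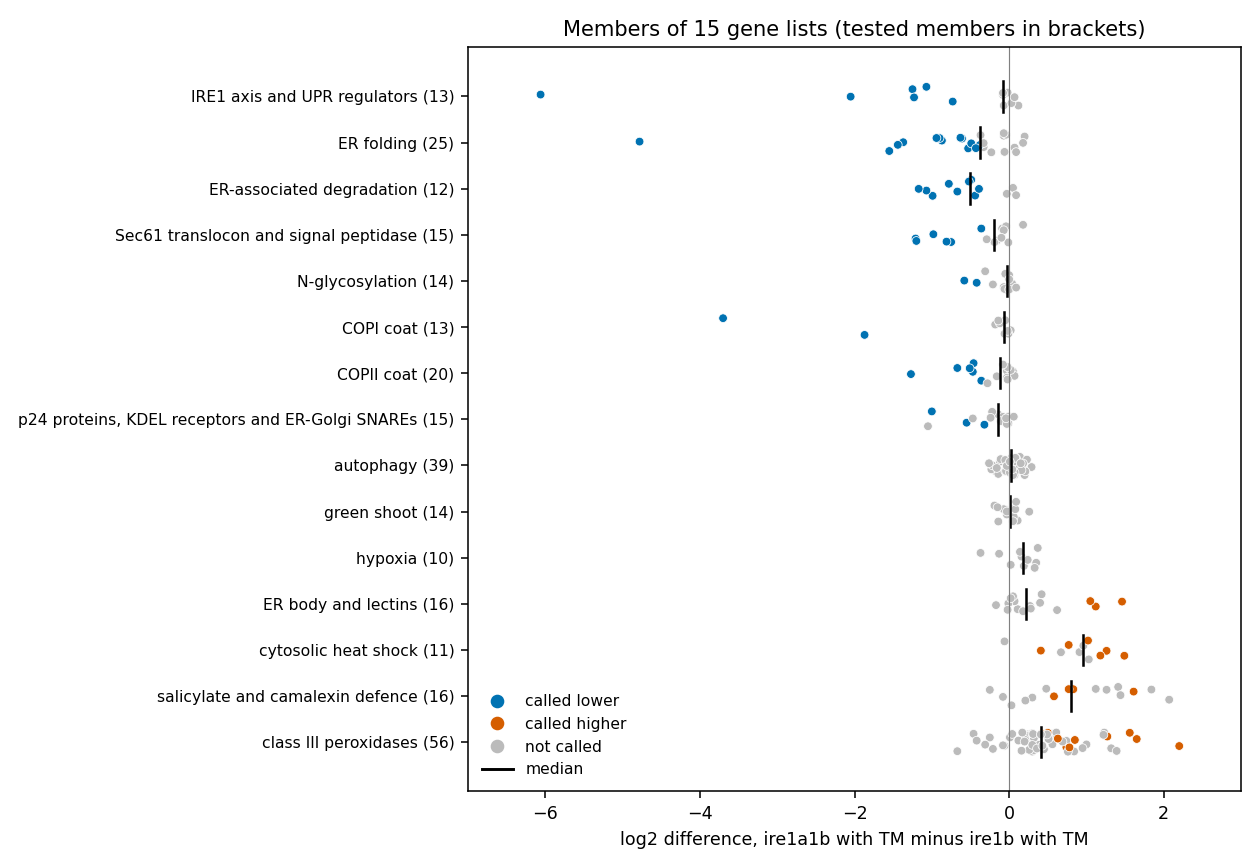
Log2 difference (ire1a1b with TM minus ire1b with TM) of each tested member of 15 gene lists. Blue is called lower, orange called higher and grey not called, and the bar is the median. AT1G18830 and SARA1A of the COPII list lie left of the axis range. The secretory lists extend to the left, while the heat shock, salicylate and peroxidase lists extend to the right with medians of 0.96, 0.8 and 0.41.

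Among calls with a mean log2 CPM of 2 or more, the largest higher differences were smaller than the largest lower ones and lay at low to moderate counts. DIR5 (AT1G64160), a dirigent protein, stood at 6.19, 7.42 and 9.63 CPM in ire1b and 33.5, 28.7 and 44.3 in ire1a1b, 4.62-fold higher with no overlap (log2 2.21 ± 0.21, adjusted p = 0.0014). OSM34 (osmotin, a PR5-type protein) stood at 4.14, 4.43 and 3.25 CPM against 20.6, 9.98 and 13.4 (log2 1.9 ± 0.28, adjusted p = 0.013), with replicate 1 of ire1a1b highest. Its log2 difference without that library was 1.56, and its adjusted p was 0.08 without ire1b replicate 1. HCHIB (basic chitinase) was higher by 1.5 ± 0.1 (adjusted p = 0.00015), and the glycosyl hydrolase gene AT4G16260 by 1.52 ± 0.17 (adjusted p = 0.0042). With TM their means were 7.55 and 42.9 CPM in ire1b and 21.3 and 123 in ire1a1b. With DMSO they were 29.7 and 239 in ire1b and 34.9 and 260.4 in ire1a1b, above the TM means of both genotypes. OSM34 likewise had higher DMSO means (12.6 and 34.2 CPM). DIR5 had DMSO means of 8.23 and 11 CPM, below its TM mean of 35.5 in ire1a1b.

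**Figure D4:**
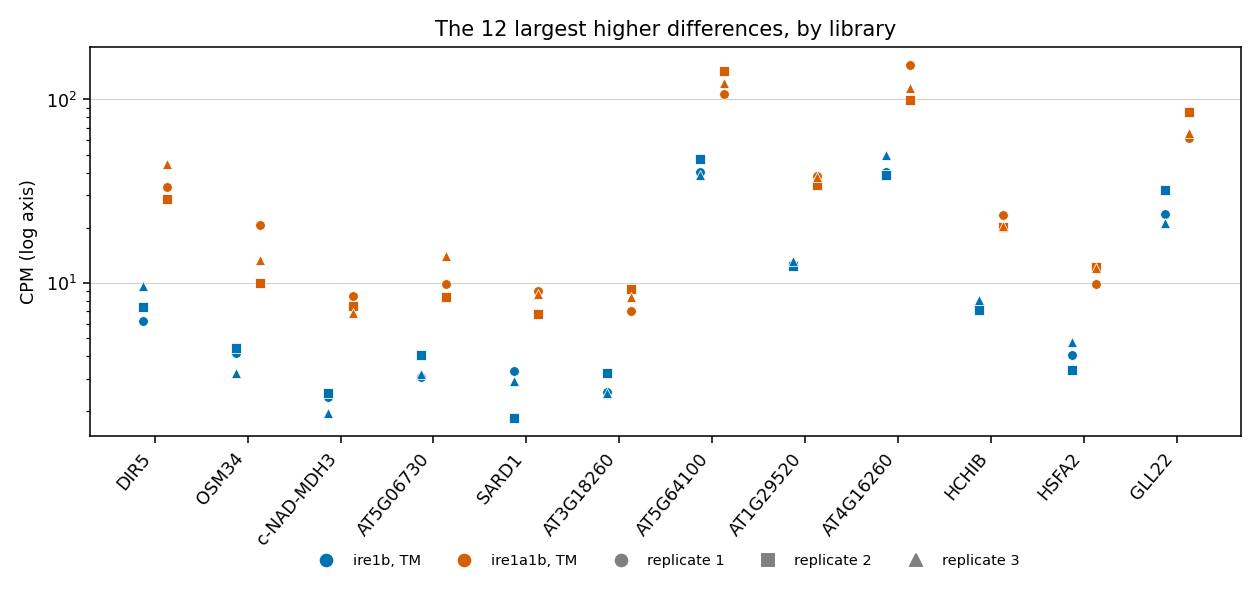
CPM on a log axis in each TM library for the 12 genes with the largest higher differences, with ire1b in blue, ire1a1b in orange and markers for the replicate. The groups do not overlap in any of the 12, which the choice of these genes required, and the spread within ire1a1b is wide for OSM34 (9.98 to 20.6).

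Some genes of salicylate signalling were higher. Of 16 tested genes of salicylate and camalexin defence 4 were higher and none lower (25% against 1.18% of all tested genes, median log2 0.8). SARD1 (AT1G73805), a regulator that switches on salicylate synthesis, stood at 3.3, 1.83 and 2.91 CPM in ire1b against 9.06, 6.82 and 8.68 in ire1a1b (log2 1.61 ± 0.21, adjusted p = 0.0073). Its target ICS1, the salicylate synthesis enzyme, was higher by 0.83 ± 0.11 (adjusted p = 0.0057), the lipase-like regulator PAD4 by 0.77 ± 0.11 (adjusted p = 0.0089) and the transporter EDS5 by 0.58 ± 0.11 (adjusted p = 0.035). PAD4 and EDS5 lost the call without ire1b replicate 1 (adjusted p = 0.063 and 0.15).

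The output genes of that pathway depended on a single library. PR1 stood at 3.26, 0.0482 and 0.896 CPM in ire1b and 0.119, 0.927 and 9.57 in ire1a1b, so that only ire1a1b replicate 3 was above every ire1b library (log2 1.26 ± 1.32, adjusted p = 0.72). PR2 showed the same library as the highest, at 7.88 CPM against 0.515 and 1.31 (log2 2.07 ± 1.13, adjusted p = 0.46). The camalexin enzyme gene PAD3 stood at 72.3, 81.7 and 105 CPM against 24.7, 81.3 and 112, with ire1a1b replicate 1 lowest (log2 -0.25 ± 0.46, adjusted p = 0.85). With the replicate block 8 of the 16 were called higher, and without ire1b replicate 1 or 2 only 2.

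Of 11 tested cytosolic heat shock genes, whose products act outside the ER, 6 were higher and none lower (54.5%, median log2 0.96). Of these calls 1, ROF2, was left when the model was fitted to all 18 libraries. HSFA2 (AT2G26150), a heat shock factor, stood at 4.05, 3.37 and 4.76 CPM against 9.93, 12.2 and 12.1 (log2 1.49 ± 0.15, adjusted p = 0.0016, and 0.056 in the fit to all 18 libraries). The small heat shock protein genes HSP17.6A and HSP17.6II were higher by 1.26 ± 0.2 (adjusted p = 0.018) and 1.18 ± 0.14 (adjusted p = 0.0049). HSP101, a protein-unfolding ATPase, was higher by 0.77 ± 0.13 (adjusted p = 0.026). HSP70 (AT3G12580) stood at 226, 243 and 324 CPM against 349.6, 547 and 593 and missed the threshold (log2 0.91 ± 0.22, adjusted p = 0.09). Without ire1a1b replicate 1, 9 members were higher, and with the replicate block 10, but without ire1b replicate 1 or 2, or ire1a1b replicate 2 or 3, only 2 were called.

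Of 56 tested class III peroxidases, which are secreted enzymes that act on the cell wall, 10 were higher and none lower (17.9%, median log2 0.41). AT5G64100 stood at 40.4, 47.2 and 38.9 CPM against 107, 143 and 123 (log2 1.56 ± 0.12, adjusted p = 0.00043), and PRXCB at 64.6, 74.5 and 73.6 against 156, 185 and 169.5 (log2 1.27 ± 0.09, adjusted p = 0.00021). Neither pair of groups overlapped. With DMSO AT5G64100 stood at 297 ± 159 CPM in ire1b and 218 ± 38.1 in ire1a1b, and in wild type with TM at 141 ± 22.1. The count of peroxidases called rose to 17 without ire1a1b replicate 1 or with the block, and fell to 4 without ire1b replicate 1, to 6 without ire1b replicate 2 and to 5 without ire1b replicate 3.

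ER bodies are ER-derived compartments filled with beta-glucosidases. Of 16 tested genes of ER bodies and their lectins 3 were higher and none lower (18.8%, median log2 0.22). BGLU21 stood at 40.2, 44.6 and 31.2 CPM against 95.1, 83.9 and 73.8 (log2 1.12 ± 0.14, adjusted p = 0.0065). GLL22, a lipase-like protein, was higher by 1.46 ± 0.18 (adjusted p = 0.0062), and BGLU22 by 1.05 ± 0.19 (adjusted p = 0.033, and 0.12 without ire1b replicate 1). The main ER body enzyme gene BGLU23 stood at 1521, 1556 and 1008 CPM against 1848, 2591 and 1845 without a call (log2 0.62 ± 0.2, adjusted p = 0.21). BGLU21 and BGLU22 are close copies, so the split of reads between them is uncertain. DMSO seedlings had a BGLU21 level of 196 ± 7.98 CPM in ire1b and 262 ± 27.3 in ire1a1b. Their GLL22 level was 147 ± 11.9 and 163 ± 14.4 CPM, against TM means of 25.7 and 70.9. With the replicate block 6 of the 16 were called.

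Autophagy, the topic named in the title of the series, gave no call. Of 39 tested autophagy genes edgeR called none, 2 had an unadjusted p below 0.05 and DESeq2 called none (log2 -0.26 to 0.29, median 0.02). Jasmonate genes (12 tested, 1 with an unadjusted p below 0.05), mitochondrial retrograde genes (6 tested, none), ER phospholipid synthesis (5 tested, none) and mitotic genes (10 tested, none) gave no call by edgeR or DESeq2 either. Hypoxia genes gave none of 10 (2 with an unadjusted p below 0.05, none by DESeq2), but 4 were higher without ire1a1b replicate 1, in which PDC1 stood at 80.5 CPM against 198 and 183.

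No single tissue marker was called on the 6 libraries. None of 8 root hair, 7 endodermis and 14 green shoot markers tested was called by edgeR or DESeq2 (3, 0 and 1 with an unadjusted p below 0.05). Without ire1a1b replicate 1, 1 root hair marker was higher. The interaction with blocks within each genotype, described below, called 2 root hair markers higher and 1 green shoot marker lower. The summed level of the 8 root hair markers was 51.3 to 55.9 CPM in ire1b and 60.2 to 64.6 in ire1a1b, without overlap, and 7 of the 8 had a log2 difference above 0. That of the 9 endodermis markers was 25.1 to 35.4 and 25.5 to 35.4, and that of the 14 green shoot markers 14297 to 18132 and 13945 to 19732. No marker was at 0 in all 6 libraries. The part of the root hair shift in the results above, peroxidases included, was not tested.

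The last question was how far the same genotype difference stood without TM. Between DMSO libraries 30 genes were called (0.146% of 20490), 4 lower (0.0195%) and 26 higher (0.127%). This fit took its estimate of spread from the DMSO and the TM libraries together. The TM and DMSO comparisons shared 28 called genes, all with the same sign, which was 93.3% of the DMSO calls and 5.75% of the TM calls. Fitted to the 6 DMSO libraries alone, an alternative chosen after the values were seen, the difference was called for 7 genes (0.0347% of 20152), 6 higher (0.0298%) and 1 lower (0.00496%). All 7 were among the 28: IRE1A was the lower one, and XTH10, AT1G29520, AT1G68230, SUS6, NS2 and AT4G09950 were the higher ones. In the fit to 12 libraries the 4 lower in both were IRE1A, BIP3, AT1G18830 and AT2G05915 (uncharacterized protein). BIP3 was at 11.3 ± 5.22 CPM in ire1b and 1.27 ± 0.24 in ire1a1b with DMSO (log2 -3.15). The ire1b libraries ranged from 5.39 to 15.2 CPM, and wild type with DMSO stood at 2.63 ± 0.934, nearer to ire1a1b than to ire1b. AT1G18830 had 143 counts over the ire1b and 2 over the ire1a1b DMSO libraries.

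Over the 28 shared genes the median size of the log2 difference was 1.36 with TM and 1.02 with DMSO. The 24 that were higher in both included the malate dehydrogenase gene c-NAD-MDH3 (log2 1.73 with TM and 1.39 with DMSO), the cell wall enzyme gene XTH10 (2.1 and 1.73), AT3G18260 and AT1G68230 of the reticulon family of ER-shaping proteins (1.56 and 1.12, 1.2 and 1.17) and the AWPM-19-like gene AT1G29520 (1.52 and 1.12). AT1G29520 stood at 12.7, 12.4 and 13.2 CPM against 38.4, 34 and 37.9 with TM (adjusted p = 3.5e-05). Of the 28 shared genes 1, BGLU33, differed between treatments (log2 1.41 with TM and 0.78 with DMSO, adjusted p = 0.03 for the interaction), and with replicate blocks within each genotype AT1G29520 did too (adjusted p = 0.025).

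Wild-type levels were set beside these genes after their values were seen. Of the 24 genes higher in both treatments, SHL1, annotated as a PHD finger protein, was the 1 whose wild-type mean lay nearer to ire1a1b than to ire1b with both. It stood at 16.6, 16.1 and 16.2 CPM in ire1b and 35, 31 and 30.3 in ire1a1b with TM, where the wild-type mean was 38.6 on the scale of all 18 libraries. With DMSO the means were 16.4 in ire1b, 31.6 in ire1a1b and 35.1 in wild type, so here ire1b was the line that stood apart. Over all TM calls, wild type with TM lay nearer to ire1a1b for 59 of the 235 higher and 50 of the 252 lower genes. With DMSO it did so for 124 and 135 of these genes, and with both treatments for 42 and 31. The same share over all tested genes was not computed.

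The interaction, which tests whether the genotype difference changed with TM, called 143 genes (0.698%), 110 in the lower direction (0.537%) and 33 in the higher (0.161%). This split depended on the model: DESeq2 called 165 lower and 107 higher, and the replicate block 139 and 91. Within each genotype, same-numbered DMSO and TM libraries deviated together. A fit with a block for each genotype and replicate number, chosen after the values were seen, called 743 genes (3.63%), 280 lower (1.37%) and 463 higher (2.26%), 141 of the 143 among them. By list the fit without blocks called 6 of the ER folding genes, 6 of ER-associated degradation, 5 of COPII, 3 of the translocon, 3 of the regulators, 2 of COPI and 2 of the peroxidases, and none of the heat shock or salicylate genes. With the blocks within each genotype these counts were 12, 8, 7, 5, 3, 2 and 13, and 7 heat shock, 6 salicylate and 5 ER body genes were called, all of them higher like the 13 peroxidases. HSFA2 (log2 1.67 ± 0.32, adjusted p = 0.019) and SARD1 (0.96 ± 0.23, adjusted p = 0.04) were called with these blocks and not without (adjusted p = 0.15 and 0.45). The interaction uses the same TM libraries as the comparison above, so its calls are not separate evidence. PDIL2-3 was called (log2 -1.49 ± 0.08, adjusted p = 2.5e-06), with DMSO levels of 84.8 ± 2.43 and 87.2 ± 1.85 CPM. IRE1A (0.03, adjusted p = 1), BZIP60 (-0.9 ± 0.35, adjusted p = 0.56) and BIP3 (-1.63 ± 0.45, adjusted p = 0.24) were not called, nor were they with the blocks (adjusted p = 0.89, 0.25 and 0.36).

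**Figure D5:**
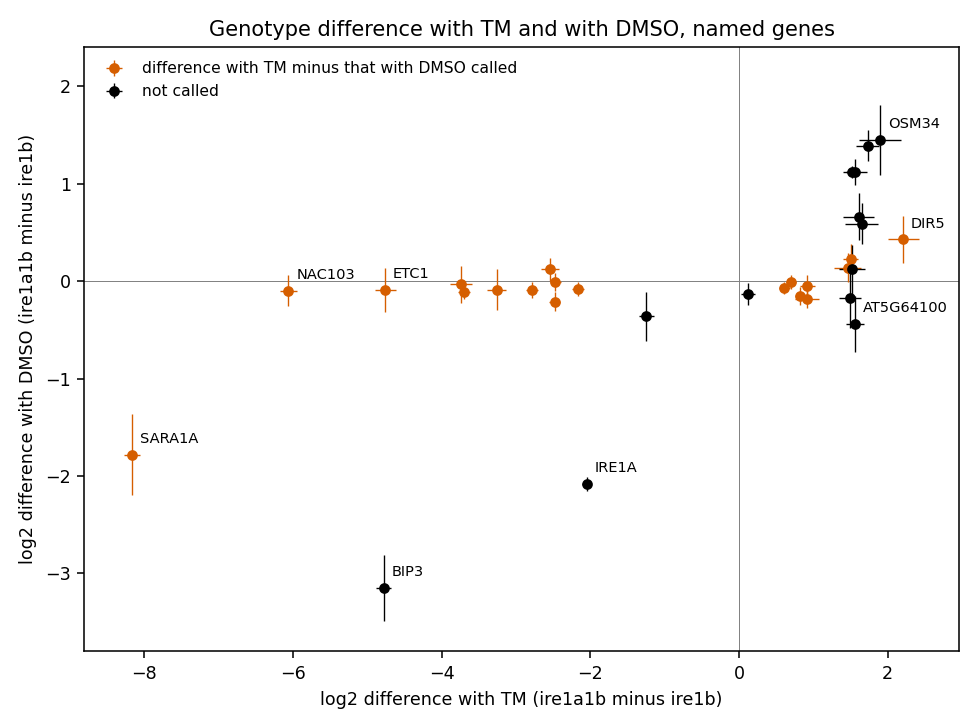
Log2 genotype difference (ire1a1b minus ire1b) with TM on the x axis and with DMSO on the y axis for the named genes, with SE bars, AT1G18830 left out for its few counts. Orange marks genes called in the interaction without replicate blocks. NAC103, at -6.06 with TM and -0.1 with DMSO, lies close to the horizontal zero line and IRE1A, at -2.05 and -2.08, far below it.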

How the data were processed

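Per the labels, polyA RNA of whole seedlings was sequenced in paired-end libraries. Per the submitters' processing notes, STAR 2.4.0, HTSeq 0.6.0, DESeq2 and the TAIR10 build were used. The authors deposited raw counts for each gene. How HTSeq treated strand and overlaps, and which annotation it read, is not given in the sources used here. Replicate numbers are those of the sample titles, which conflicted with another label. No label says that replicates were separate cultures, so the tests reflect variation between samples that could be technical. Reads with no feature (1.236% to 1.419% in the 6 TM libraries), ambiguous (1.182% to 1.231%) or not unique (3.378% to 3.597%) were left out of library sizes. Coordinates, names and promoter sequences are those of TAIR10.1 from RefSeq, which held 26719 of 27416 identifiers.

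Genes passing filterByExpr were tested on the 6 TM libraries with edgeR 4.0.16 (R 4.3.3, TMM factors 0.9748 to 1.018, robust quasi-likelihood). Benjamini-Hochberg adjustment ran across every tested gene, and adjusted p-values are edgeR's unless DESeq2 is named. The DMSO difference and the interaction came from 1 fit to the 12 libraries of both genotypes, and DMSO levels were scaled over all 18. On simulated counts (19845 genes) the main test recovered 78% of changes of log2 1 and 96% of log2 2, the interaction (20359 genes) 57% and 92%, and the interaction with blocks within each genotype (20359 genes) 54% and 91%. In each, 100 genes were changed by either size, and 22, 5 and 6 unchanged genes were called in turn. The simulated libraries had no outlying replicate and no shared deviation of same-numbered replicates, so these rates need not hold for the real ones. Deviations from the group mean correlated at 0.22, 0.18 and 0.24 between same-numbered replicates of the TM groups, and at -0.18 to -0.01 otherwise. Centring each group on its own mean pushes the other values down where these are positive, so the negative ones are no separate comparison. The numbers were taken as pairing the TM samples because the same-numbered values passed the 0.1 set for pairing. Over the 12 libraries the same-numbered correlations were 0.15 to 0.33 between DMSO and TM of ire1b and 0.44 to 0.72 between those of ire1a1b. They were 0.17 to 0.21 between the TM groups and 0.01 to 0.23 between the DMSO groups. For ire1b with DMSO and ire1a1b with TM they were 0.1 to 0.13, and for the reverse 0.11 to 0.26. The numbers were thus taken as pairing the samples within each genotype as well. Whether they also pair the DMSO groups is unclear, since the lowest value there fell below 0.1.

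The named genes were IRE1A, IRE1B, BZIP60, NAC103 and BIP3, the 12 largest differences each way among calls without overlap and with average log2 CPM no lower than 2, the 5 smallest interaction p-values each way, and list members. Neighbours and the ARF1 list were added after values were seen. The comparison, members and lists were chosen with earlier results of these data known. Alternatives were RLE scaling, DESeq2 1.42.0, other filters, the replicate block, non-robust estimation, thinning, a size test, a fit to all 18 libraries and libraries left out. Blocks within each genotype for the interaction and a fit to the 6 DMSO libraries were added after values were seen.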

Additional observations from a re-analysis of the deposited data

Results flagged for a closer look

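Among the named genes, 19 had a genotype difference with TM that differed from that with DMSO by the interaction test of edgeR (n = 3 per group). With replicate blocks within each genotype 18 of them were called, and DIR5 was not (adjusted p = 0.12). The lower ones were SARA1A (log2 -6.39, adjusted p = 0.00063), NAC103 (-5.96, 6.9e-08), ETC1 (-4.68, 6e-06), AT2G29260 (-3.72, 1e-05), AT3G15980 (-3.59, 8.3e-09), AT3G55700 (-3.18, 5.8e-05), ARFA1D (-2.71, 2.8e-07), RBOHB (-2.67, 6.6e-06), SVB (-2.47, 1.2e-06), AT1G29060 (-2.27, 5.1e-06) and AT4G32670, a RING-type zinc finger gene (-2.1, 1.1e-06). For SARA1A the DMSO libraries held 40 and 13 counts in all, so its value rests on few reads. The higher ones were DIR5 (log2 1.77, adjusted p = 0.039), GLL22 (1.31, 0.02), HCHIB (1.26, 0.029), the serine carboxypeptidase-like gene scpl3 (1.09, 0.0072), AT4G24340 of the phosphorylase family (0.97, 0.0092), the beta-glucosidase gene BGLU46 (0.96, 0.0024), SGT1A (0.71, 0.0039) and GAMMA-VPE, a vacuolar protease gene (0.68, 0.0036). AT4G32670 stood at 142, 135 and 137 CPM in ire1b with TM against 31, 27.5 and 33.3 in ire1a1b, with DMSO means of 15.5 and 14.7.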

How the results depend on the processing

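Against 487 called genes with TM, DESeq2 called 768, the replicate block 927 and the test against a log2 size of 1 only 47. Leaving out 1 library gave 206 (without ire1b replicate 2) to 893 (without ire1a1b replicate 1), with 214 and 245 without ire1b replicates 1 and 3, and leaving out replicate 1 of both groups gave 503. Against 143 interaction calls, DESeq2 gave 272, the replicate block 230, blocks within each genotype 743 and left-out libraries 94 to 138, the fewest without ire1b replicate 1 with TM. Against 30 DMSO calls the replicate block gave 36, the fit to the 6 DMSO libraries 7 and left-out libraries 21 to 31. The cause was not tested. RLE scaling, the filters, non-robust estimation and thinning, and for TM the fit to all 18 libraries (564 calls), stayed within 1.5 times of each count, and no scaling moved the median of all genes by 0.1.

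The 106 named or listed genes called with TM were picked by a call on these same libraries, so a kept sign is not separate evidence. Of the 106, none changed sign under any of these settings, DESeq2 called all 106, and 91 remained called without replicate 1 of both groups. IRE1B, which was not called, went from a log2 difference of 0.12 to -0.04 there. Without ire1b replicate 1, 2 or 3, 41, 42 and 36 lost the call, and 15 did in the fit to all 18 libraries. For the TM difference alone, blocks within each genotype give no value, since it cannot be separated from them. These blocks for the interaction and the fit to the 6 DMSO libraries were chosen after seeing the data. With 3 libraries a group, small differences rest on few samples.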

Other observations

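Cell wall, detoxification and hormone lists added few calls. Of 27 tested xyloglucan endotransglucosylase/hydrolase genes 2 were higher and none lower (7.41%, median log2 0.2, 5 with the replicate block), XTH10 with the larger difference, at 1.42, 1.98 and 1.51 CPM in ire1b with TM against 7.12, 5.94 and 7.88 in ire1a1b. XTH6 and XTH15 were highest in ire1a1b replicate 1 (17 and 182 CPM against 3.71 and 4.83, and 99.7 and 70.8, in the other 2) and were not called. Of 22 expansins 1 was higher (4.55% against 1.18% of all tested genes). Of 42 arabinogalactan and fasciclin-like genes 1 was (2.38%), FLA12 (log2 0.45 ± 0.07, adjusted p = 0.013, and 0.11 without ire1b replicate 1). Of 6 lipid transfer protein genes edgeR called none, 2 had an unadjusted p below 0.05 and DESeq2 called 1.

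Of 34 tau and phi glutathione transferases 2 were higher and 1 lower (5.88% and 2.94%, against 1.18% and 1.26% of all tested genes). GSTU18 was 2.32-fold lower, without overlap (log2 -1.21 ± 0.13, adjusted p = 0.0026), and GSTF4 was higher by 1.02 ± 0.1 (adjusted p = 0.0011). Of 114 UDP-glycosyltransferases 2 were higher and 1, AT3G55700, lower (1.75% and 0.877%, close to the 1.18% and 1.26% of all tested genes). Of 56 WRKY factors WRKY33, a regulator of camalexin synthesis, was lower (log2 -0.61 ± 0.1, adjusted p = 0.022, and 0.12 without ire1b replicate 1) and WRKY51 higher (1.36 ± 0.24, adjusted p = 0.029, and 0.15 without ire1b replicate 2), or 1.79% each way. With the replicate block 7 WRKY genes were higher and 2 lower, and by DESeq2 6 and 2. Without ire1a1b replicate 1, 8 glycosyltransferase and 6 WRKY genes were called. Among 11 abscisate and osmotic stress genes 2 were lower, RD29B (7.86, 6.27 and 7.56 CPM against 3.56, 3 and 2.58) and the phosphatase gene PP2CA (log2 -0.54 ± 0.07, adjusted p = 0.0057, and 0.051 without ire1b replicate 2). Of 12 cell death and survival genes 2 were higher (16.7%), GAMMA-VPE (log2 0.61 ± 0.07, adjusted p = 0.0022) and the protease inhibitor gene KTI1 (1.3 ± 0.23, adjusted p = 0.034, and 0.17 without ire1b replicate 1). None of the metacaspases in that list was called.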
